A study of Mus musculus with 12 samples.

Results

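The Igf2-H19, Kcnq1 and Igf2r-Airn domains are the classical clusters of imprinted genes of mouse distal chromosome 7 and proximal chromosome 17, and they were followed here in whole adult retina through Igf2, H19, Cdkn1c, Phlda2, Kcnq1ot1, Igf2r and Airn. The genes were taken by their symbols. Of these 7 genes, 6 had a row among the 37991 genes of the deposited tables, and 4 (Igf2, Cdkn1c, Igf2r and Airn) had enough reads for an allele test. Kcnq1ot1 had no row under that symbol and was not analysed here.

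Retinas came from male mice of the inbred reference strain C57BL/6J, the wild-derived strain Cast/EiJ and both reciprocal hybrids, all 8 weeks old. F1 B6xCast mice had a C57BL/6J father and a Cast/EiJ mother, and F1 CastxB6 mice had a Cast/EiJ father and a C57BL/6J mother. Each of the 4 groups, of which F0 stands for the parental strains, had 3 libraries of polyadenylated RNA, each made from a pool of 6 to 8 retinas, so that differences between individual mice were averaged within a library. In F1 animals each allele could be followed through the sequence variants between the strains, and a parent-of-origin effect appeared as the same parental allele being higher in both crosses.

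Imprinted genes are expressed mainly from the allele inherited from 1 parent, which is set by DNA methylation laid down in the germ line. In the Igf2-H19 domain a shared control region lets the paternal chromosome express Igf2, a fetal growth factor, and the maternal chromosome express H19, a non-coding RNA. In the Kcnq1 domain the paternally expressed non-coding RNA Kcnq1ot1 silences its neighbours in cis, among them Cdkn1c, an inhibitor of cyclin-dependent kinases, and Phlda2, which limits placental growth. In the Igf2r domain the paternally expressed antisense RNA Airn silences Igf2r in most peripheral tissues, whereas neurons are known to express Igf2r from both alleles. Igf2r encodes the cation-independent mannose 6-phosphate receptor, which carries IGF2 to lysosomes for degradation.

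The libraries held 8158534 to 11888819 unique hits in F0 and 8808577 to 12363291 in F1. A unique hit is a fragment compatible with a single gene and, in F1, with a single strain's allele of it. Replicate 1 stood apart in F1 B6xCast and in both F0 groups, away from the other libraries of its group. The chi-square per degree of freedom over genes was 6.72 to 11.6 in pairs that held it and 1.63 to 3.04 in all other pairs within groups. The values of Igf2 and Cdkn1c that these libraries move are given without them beside the results. Summed rod markers spanned 765500 to 837200 count equivalents across the 12 libraries, and no marker of the 14 cell types examined was at 0 in all libraries. In bulk retina, fewer cells of a type and less RNA per cell cannot be told apart.

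The paternal bias of Igf2 was clear and incomplete. Maternal and paternal unique hits were 29 and 315, 39 and 248, and 23 and 150 in F1 B6xCast replicates 1 to 3. They were 35 and 96, 39 and 88, and 37 and 106 in F1 CastxB6. The paternal allele had more hits in 6 of 6 libraries, and the maternal allele was never silent. Pooled over both crosses, 202 of 1205 allele-specific hits were maternal, or 16.8% (95% Clopper-Pearson interval 14.7 to 19%, which, as for all such intervals here, covers counting error only).

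**Figure D1:**
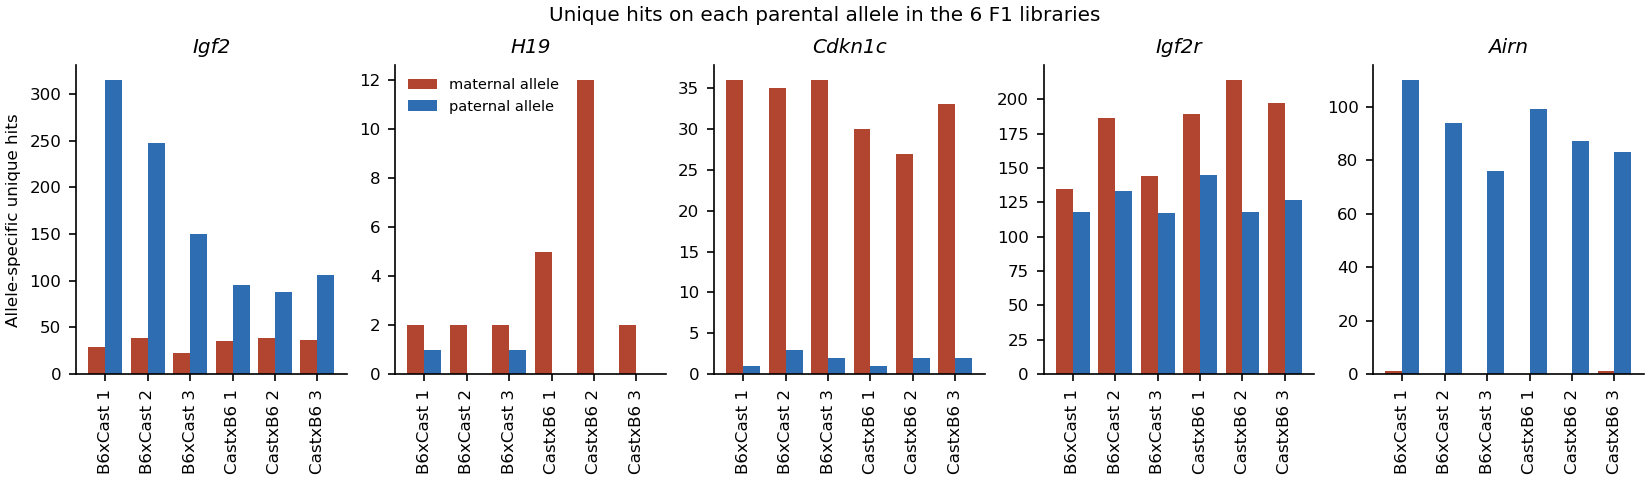
Unique hits on the maternal and the paternal allele of Igf2, H19, Cdkn1c, Igf2r and Airn in each of the 6 F1 libraries (y axis, hits per library, with its own scale for each gene; a pair of bars is 1 library, F1 B6xCast or F1 CastxB6 replicate 1 to 3, red maternal and blue paternal). Paternal bars are taller for Igf2 and Airn and maternal bars for H19 and Cdkn1c, while the maternal bars of Igf2r exceed the paternal ones by less, with 53.4 to 64.5% of hits maternal.

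H19, transcribed from the same strand as Igf2 and starting 88.67 kb away from it, showed the opposite bias at a much lower level. Maternal hits were 2, 2 and 2 in F1 B6xCast, against 1, 0 and 1 paternal hits. In F1 CastxB6 they were 5, 12 and 2, against 0, 0 and 0. Thus 25 of 27 hits were maternal, or 92.6% (95% Clopper-Pearson interval 75.7 to 99.1%), a maternal to paternal ratio of 12.5 (counting interval 3.12 to 109). With fewer than 10 hits per F1 library on average, H19 was outside the allele test. With the minimum lowered to 1 hit, the effect was 2.53 (SE 0.25) on the log2 scale of count equivalents with a Benjamini-Hochberg adjusted p of 5.24e-05 in limma, and 3.53 with an adjusted p of 0.153 on the unique hits in edgeR.

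In the Kcnq1 domain Cdkn1c was expressed almost wholly from the maternal chromosome. Maternal and paternal hits were 36 and 1, 35 and 3, and 36 and 2 in F1 B6xCast. They were 30 and 1, 27 and 2, and 33 and 2 in F1 CastxB6. Of 208 hits, 11 were paternal, or 5.29% (95% Clopper-Pearson interval 2.67 to 9.27%), and paternal hits were seen in 6 of 6 libraries. Phlda2, which starts 41.49 kb from Cdkn1c, had no unique hit in any library. A count of 0 allows up to 3 hits in a library of this depth, so its imprinting could not be examined.

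In the Igf2r domain the antisense RNA and the gene it silences elsewhere behaved very differently. Airn had 110, 94 and 76 paternal hits in F1 B6xCast, against 1, 0 and 0 maternal hits. In F1 CastxB6 it had 99, 87 and 83 paternal hits, against 0, 0 and 1. Only 2 of 551 hits were maternal, or 0.363% (95% Clopper-Pearson interval 0.044 to 1.3%), a paternal to maternal ratio of 274 (counting interval 75.9 to 2270). In the 4 libraries without a maternal hit, the count of 0 allows a maternal share of up to 3.03 to 3.95%.

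Igf2r was expressed from both alleles, with a modest maternal excess. Maternal and paternal hits were 135 and 118, 186 and 133, and 144 and 117 in F1 B6xCast. They were 189 and 145, 214 and 118, and 197 and 127 in F1 CastxB6. The maternal excess was seen in 6 of 6 libraries, although the highest paternal count, 145, exceeded the lowest maternal one, 135. Pooled, 1065 of 1823 hits were maternal, or 58.4% (95% Clopper-Pearson interval 56.1 to 60.7%).

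The promoters of this sense and antisense pair, and that of the maternally expressed H19, are shown because the methylation that separates parental alleles falls on CG dinucleotides, written in capitals. Each window is the 250 bases directly before the annotated start, read 5′ to 3′ on the gene's own strand from the NCBI37 mouse genome with the gene starts of the GENCODE M1 annotation. It holds no transcribed base of that gene's longest model.
Igf2r, chr17:12962531-12962780, minus strand: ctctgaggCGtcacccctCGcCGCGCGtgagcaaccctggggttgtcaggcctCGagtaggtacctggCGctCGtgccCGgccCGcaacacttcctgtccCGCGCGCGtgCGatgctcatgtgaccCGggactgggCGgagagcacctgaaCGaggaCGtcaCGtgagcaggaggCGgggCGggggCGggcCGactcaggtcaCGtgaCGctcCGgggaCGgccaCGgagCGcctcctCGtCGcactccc
Airn, chr17:12933927-12934176, plus strand: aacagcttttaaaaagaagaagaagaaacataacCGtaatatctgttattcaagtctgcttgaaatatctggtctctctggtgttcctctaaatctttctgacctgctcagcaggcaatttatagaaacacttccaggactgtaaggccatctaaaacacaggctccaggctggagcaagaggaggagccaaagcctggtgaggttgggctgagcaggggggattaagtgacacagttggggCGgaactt
H19, chr7:149764049-149764298, minus strand: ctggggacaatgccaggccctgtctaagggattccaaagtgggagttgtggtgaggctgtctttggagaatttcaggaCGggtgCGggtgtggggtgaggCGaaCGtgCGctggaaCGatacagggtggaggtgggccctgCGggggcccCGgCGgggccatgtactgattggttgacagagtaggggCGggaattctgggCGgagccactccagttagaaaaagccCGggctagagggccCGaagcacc
The letters CG (the same on either strand) occurred 32 times before Igf2r, and 3.8% of the windows of 37303 genes held as many. The H19 window had 13 (26.4% of windows had as many) and the Airn window 2 (75.2%), against a median of 4. The windows end at the start, so CG letters after the start or further upstream were not counted, and the regions that carry the imprints may lie outside them. A count of CG letters says nothing about their methylation in these retinas.

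On the NCBI37 assembly, Igf2r (ENSMUSG00000023830) lies at chr17:12875272-12962530 on the minus strand, and Airn (ENSMUSG00000078247) at chr17:12934177-13052988 on the plus strand. Airn starts inside intron 2 of the 48-exon Igf2r transcript, at chr17:12933273-12941509, and 28.35 kb from the Igf2r start. The libraries did not keep strand, but the annotated exons of Igf2r (9438 bases) and Airn (3583 bases) share 0 bases. Reads of these spliced forms could thus be told apart by position. Airn spans the Igf2r start, however, so any reads of unspliced Airn over the first Igf2r exons would count as Igf2r. The amount of such reads was not tested. H19 (ENSMUSG00000000031) lies at chr7:149761434-149764048, Igf2 (ENSMUSG00000048583) at chr7:149836673-149852721, Cdkn1c (ENSMUSG00000037664) at chr7:150644255-150646955 and Phlda2 (ENSMUSG00000010760) at chr7:150687450-150688446, all on the minus strand. Igf2 shares 98 of its 5493 exonic bases with the antisense gene Igf2as, so reads there could not be assigned by strand. Igf2as had 20 allele-specific hits, of which 25.0% were maternal (95% Clopper-Pearson interval 8.66 to 49.1%).

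To ask whether the bias exceeded the spread between libraries, maternal and paternal count equivalents, the normalized read counts given by MMSEQ, were compared with limma across 13414 autosomal genes. All 4 tested genes were called at an adjusted p under 0.05, Cdkn1c and Igf2r maternal and Igf2 and Airn paternal. With log expression weighted by its posterior SD, 3 of the 4 were called, and Airn was at -4.70 with a limma adjusted p of 0.0624. Over all genes tested, 0.447% were called, 0.164% with the maternal allele higher and 0.283% with the paternal allele higher. On the log2(count equivalents + 1) scale the maternal minus paternal difference was -5.36 (SE 0.22) for Airn, with a limma adjusted p of 5.71e-10, and the paternal allele was 41.2-fold higher on that scale. It was 4.08 (SE 0.22) for Cdkn1c, with a limma adjusted p of 1.56e-08 and a 16.9-fold difference. These folds are compressed where the lower allele is near 0.

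For Igf2 the difference was -1.86 (SE 0.15), a 3.64-fold paternal excess with a limma adjusted p of 2.95e-06. For Igf2r it was 0.46 (SE 0.07), a 1.38-fold maternal excess with a limma adjusted p of 0.00242. Ranked by size among the 60 called genes, Airn was number 15, Cdkn1c 24, Igf2 31 and Igf2r 54. The median absolute difference was 1.99 among called genes and 0.06 among all genes tested, on the same log2 scale. Igf2r thus belonged to the smallest effects that passed the test, and its sign was the same in 6 of 6 libraries. When each F1 library was left out in turn, replicate 1 of F1 B6xCast included, the 4 calls held, with differences of -5.62 to -5.23 for Airn, 3.85 to 4.27 for Cdkn1c, -1.99 to -1.66 for Igf2 and 0.40 to 0.52 for Igf2r.

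The bias of Igf2 differed in size between the crosses. By unique hits, the maternal share was 8.43, 13.6 and 13.3% in F1 B6xCast and 26.7, 30.7 and 25.9% in F1 CastxB6. The groups did not overlap, and the means were 11.8% ± 2.9 (SD, n = 3) and 27.8% ± 2.58. In limma the maternal minus paternal difference was -2.83 (SE 0.21) in F1 B6xCast and -0.89 (SE 0.21) in F1 CastxB6. The difference between crosses was 1.94 (SE 0.30) on the log2 scale, with a limma adjusted p of 0.000106.

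That difference between crosses is the same contrast as a strain difference between alleles of the same parental origin. The C57BL/6J allele of Igf2 was 1.96-fold higher than the Cast/EiJ allele (-0.97 on the log2 scale as Cast/EiJ minus C57BL/6J, SE 0.15), and Igf2 was the only 1 of the 4 genes called for it, where 46.1% of all genes tested were called. Without F1 B6xCast replicate 1 this was -0.77 (SE 0.12), with a limma adjusted p of 0.000232. Paternal Igf2 had 1170, 913 and 862 count equivalents as the C57BL/6J allele and 544, 484 and 618 as the Cast/EiJ allele. Maternal Igf2 had 340, 287 and 261 as the C57BL/6J allele and 92.3, 180 and 150 as the Cast/EiJ allele. The strains did not overlap in either parental origin, and the ratio of means was 1.79 for paternal and 2.1 for maternal alleles. Both maternal estimates were less certain than the paternal ones. The mean posterior SD on the natural log scale was 0.481 for maternal Cast/EiJ and 0.439 for maternal C57BL/6J. It was 0.227 for paternal Cast/EiJ and 0.133 for paternal C57BL/6J.

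Of the other genes, Cdkn1c showed the same bias in both crosses within error (difference between crosses -0.00, SE 0.43, limma adjusted p 0.996), an error that leaves room for differences of that order. For Airn the bias differed by 0.74 (SE 0.44, limma adjusted p 0.182), and for Igf2r by 0.21 (SE 0.13, limma adjusted p 0.213). The mean maternal share of Igf2r hits was 55.6% ± 2.5 (SD, n = 3) in F1 B6xCast and 60.6% ± 3.94 in F1 CastxB6, and these shares overlapped. Maternal H19 had 5.5, 4.81 and 4.87 count equivalents as the Cast/EiJ allele and 14, 21.6 and 9.98 as the C57BL/6J allele, which did not overlap. The strain difference of H19 was -0.87 in limma (adjusted p 0.0128) with the minimum lowered to 1 hit and -2.10 in edgeR (adjusted p 0.125).

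**Figure D2:**
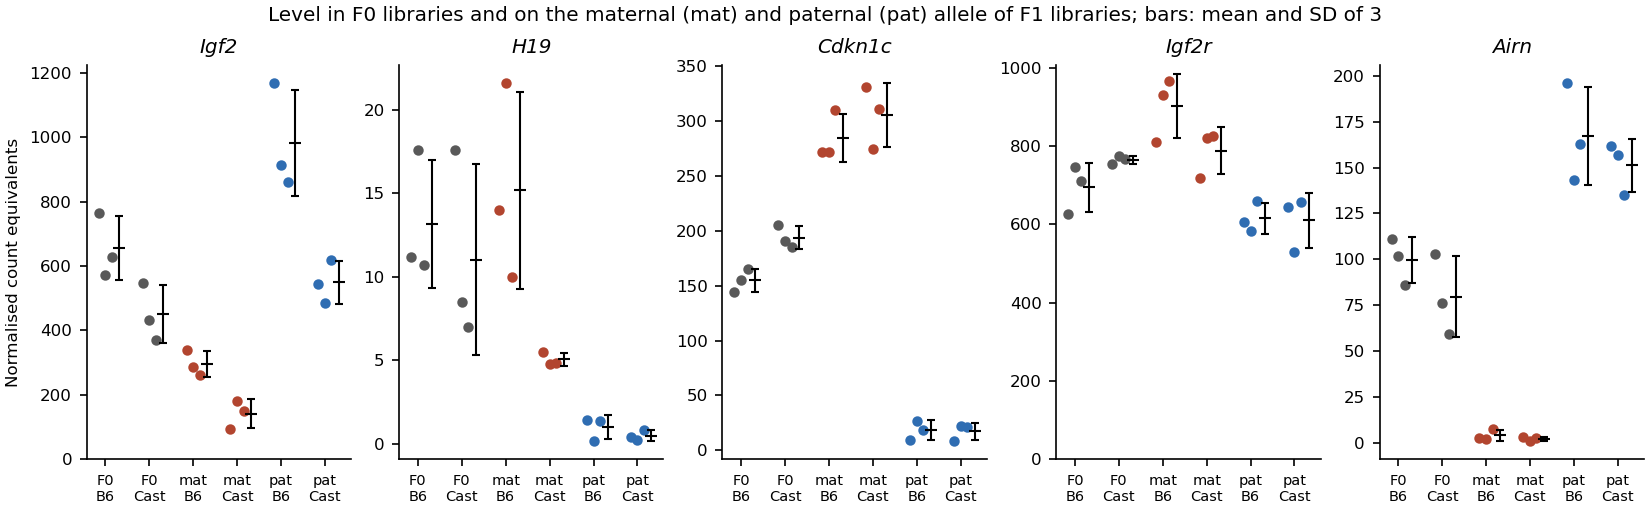
Normalised count equivalents (y axis) of Igf2, H19, Cdkn1c, Igf2r and Airn in F0 retina of each strain (grey) and of each F1 allele by parental origin and strain (red maternal, blue paternal), with 1 point per library, 3 per group, and bars for mean and SD. Paternal Igf2 lies at 862 to 1170 as the C57BL/6J allele and 484 to 618 as the Cast/EiJ allele, and the F1 alleles of Igf2r lie at 529 to 966.

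The share of the less expressed allele was compared with a built-in measure of misassigned reads. In male hybrids the single X chromosome is maternal, so X-linked hits assigned to the paternal strain's allele were taken as misassigned. Whether every such hit is an error was not tested. That share was 0.637, 0.523 and 0.536% in F1 B6xCast and 0.468, 0.501 and 0.499% in F1 CastxB6. It fell to 0.234 to 0.433% without the X-linked genes Mid1 and Nono, and 5 imprinted references with near-complete bias lay lower still, at 0.0511 to 0.234% per library. Igf2 exceeded it by a mean of 19.2 percentage points (range 7.79 to 30.2, 6 of 6 libraries), with p = 0.031 in a two-sided exact permutation test over libraries, the smallest p that 6 libraries allow. Igf2r exceeded it by 41.4 points (35.0 to 46.0, 6 of 6), with p = 0.031 in the same exact permutation test.

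The less expressed allele of Cdkn1c exceeded the X-linked level by only 4.75 points (2.07 to 7.37, 6 of 6 libraries; exact permutation p = 0.031). The less expressed allele of Airn did not depart detectably from it, at -0.18 points on average (above it in 2 of 6 libraries; exact permutation p = 0.375). The sign of that value turned with the comparator, to 0.02 points without Mid1 and Nono (exact permutation p = 0.938) and 0.20 points against the 5 references (exact permutation p = 0.5). These were the 4 genes tested in this way. With count equivalents in place of hits, the excess of Cdkn1c was 2.72 points and its exact permutation p was 0.0625. The share of the less expressed allele in those references was 0.0562% for Peg3, 0.342% for Snrpn, 0.0255% for Rian, 0.167% for Meg3 and 0.151% for Sgce, pooled over F1 libraries. Airn at 0.363% stood near these, Cdkn1c at 5.29% above them, and Igf2 and Igf2r far above.

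**Figure D3:**
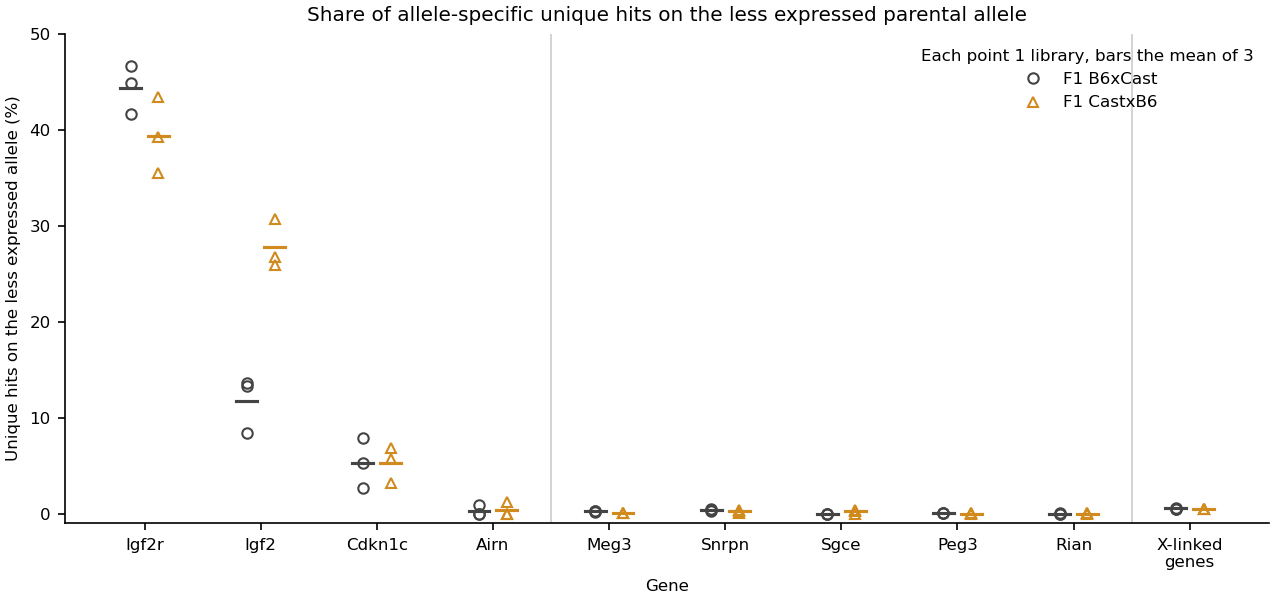
Share of unique hits on the less expressed parental allele (y axis, percent) for the 4 tested genes, the 5 near-complete references and the X-linked genes, 1 point per F1 library (circles F1 B6xCast, triangles F1 CastxB6) and a bar for the mean of 3. Airn overlaps the X-linked level of 0.468 to 0.637%, Cdkn1c lies at 2.70 to 7.89%, Igf2 at 8.43 to 30.7% and Igf2r at 35.5 to 46.6%.

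None of the measured neighbours passed the test for a parental bias. Of 37 neighbouring gene rows listed within the 3 domains, 18 had enough hits (4 at Igf2-H19, 9 at Kcnq1 and 5 at Igf2r-Airn), and 0 were called in limma, edgeR or DESeq2. With 0.447% of all genes called in limma, a count of 0 among 18 does not set the neighbours apart from other genes. The lowest limma adjusted p was 0.359, and 1 gene in limma, 2 in edgeR and 0 in DESeq2 had an unadjusted p under 0.05. Their pooled maternal share lay between 47.6 and 56.9%, and their differences reached at most 0.42 on the log2 scale. Th, the rate-limiting enzyme of dopamine synthesis and a marker of dopaminergic amacrine cells, had the lowest adjusted p, with a maternal minus paternal difference of 0.31 (SE 0.10) and 53.9% maternal hits. Its maternal share was 66.8% in F1 B6xCast and 43.2% in F1 CastxB6, so the higher parental allele differed between the crosses. Pooled shares likewise hide strain differences, as in Mrpl23, with 85.2% maternal hits in F1 B6xCast and 13.0% in F1 CastxB6. Of genes near Cdkn1c, Nap1l4 (a histone chaperone) had 50.6% maternal hits and Cd81 (a tetraspanin) 50.1%. Near Airn, Sod2 (the mitochondrial superoxide dismutase) had 51.4%. Kcnq1 itself had 8 hits, Slc22a18 had 4, Ascl2 had 1 and Ins2 had 0, so the reach of imprinting to these genes could not be examined.

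**Figure D4:**
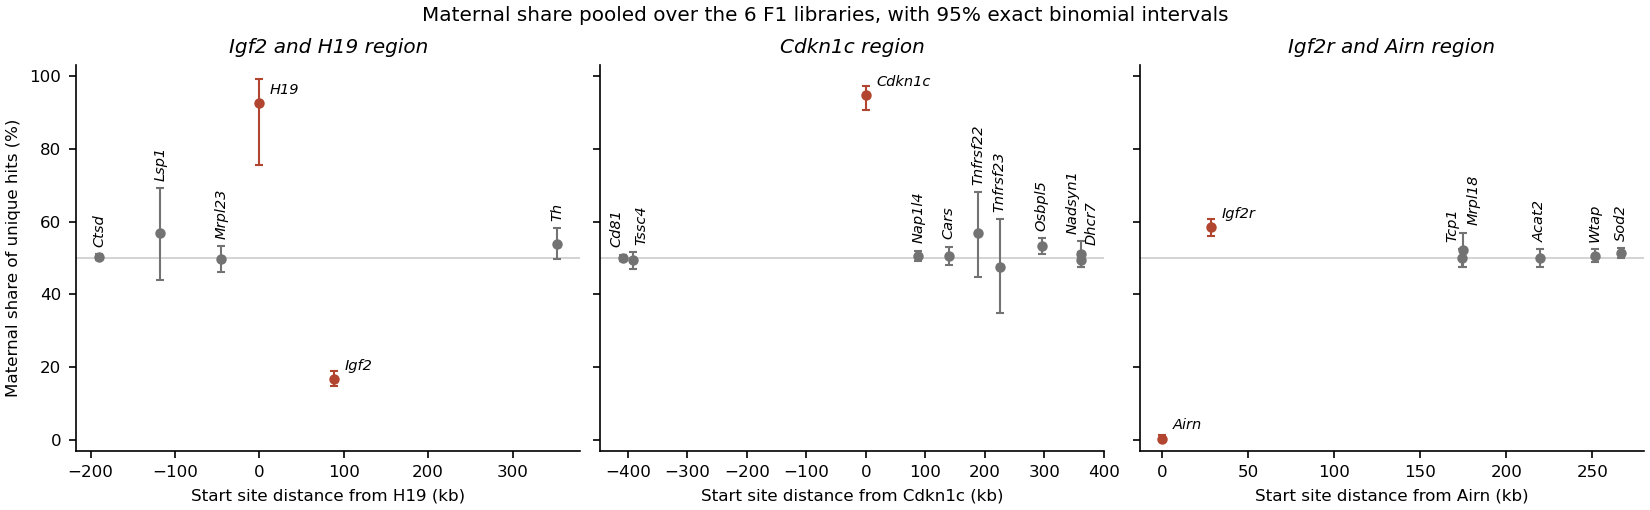
Pooled maternal share of unique hits (y axis, percent, with 95% Clopper-Pearson intervals) for genes along the 3 domains, members in red and measured neighbours in grey, plotted by distance of the start site in kb from H19, Cdkn1c or Airn. Measured neighbours lie between 47.6 and 56.9%, while Igf2 (16.8%), Airn (0.363%), H19 (92.6%) and Cdkn1c (94.7%) lie far from them and Igf2r (58.4%) just above.

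Genes that act with these were examined next. Of 20 genes of IGF signalling (receptors, binding proteins and adapters), 16 were tested and 1 was called in limma for parental origin, where 0.447% of all genes were called, with a median difference of 0.02 against -0.00 over all genes tested. That gene was Grb10, an adapter that binds the insulin and IGF1 receptors and is itself imprinted. It had 1904 maternal among 2845 hits, or 66.9% (95% Clopper-Pearson interval 65.2 to 68.7%), and a maternal excess of 0.80 (SE 0.06) on the log2 scale with a limma adjusted p of 2.91e-06. Of 11 tested genes that maintain imprints (12 listed) and 6 tested relatives of Cdkn1c and Phlda2 (8 listed), 0 were called by parental origin in limma, edgeR or DESeq2, where 0.447% of all genes were called in limma, so these lists do not stand apart from other genes. At an unadjusted p under 0.05 there were 0 and 1 in limma, 1 and 0 in edgeR, and 0 in both lists in DESeq2. For the strain of the allele, 9 of the 16 IGF genes and 4 of the 11 imprint maintenance genes were called, against 46.1% of all genes tested.

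Total levels were then compared between the parental strains. Igf2 had 765, 572 and 627 count equivalents in F0 C57BL/6J and 548, 432 and 371 in F0 Cast/EiJ, which did not overlap. The means were 655 ± 99.4 and 450 ± 89.9 (SD, n = 3). The difference was -0.55 (SE 0.16) on the log2 scale, 1.46-fold lower in Cast/EiJ, with a limma adjusted p of 0.0249. Igf2 was the only 1 of 5 tested members of the domains called, where 33.8% of 14452 genes were called.

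The call on Igf2 rested on single libraries. It was lost without F0 C57BL/6J replicate 1 (-0.43, adjusted p 0.0634), which stood apart, without F0 C57BL/6J replicate 3 (-0.57, adjusted p 0.0539), without F0 Cast/EiJ replicate 2 (-0.53, adjusted p 0.0812) and without F0 Cast/EiJ replicate 3 (-0.42, adjusted p 0.0842), all in limma. Without F0 Cast/EiJ replicate 1, which also stood apart, it held (-0.70, limma adjusted p 0.00834). Over the same libraries, the summed level of 4 mural cell markers was 1054 to 1237 count equivalents in F0 C57BL/6J and 482 to 568 in F0 Cast/EiJ. That of 5 retinal pigment epithelium markers was 225 to 276 and 73.0 to 107. Markers of 5 endothelial genes, 1923 to 2753 and 2935 to 3725, and of 6 fibroblast genes, 59.3 to 72.5 and 98.8 to 141, were higher in Cast/EiJ. Microglia markers (3 genes) were at 92.1 to 95.6 and 35.9 to 45.8, cone markers (4 genes) at 10220 to 12140 and 7070 to 8250, and amacrine markers (3 genes) at 7550 to 8530 and 9620 to 10080, none of which overlapped. Rod markers (781700 to 785600 and 791000 to 837200), bipolar markers (8880 to 10370 and 8360 to 8690) and ganglion markers (1920 to 2022 and 1785 to 1863) did not overlap either. Those of Mueller glia, melanocytes, lens and blood overlapped. The part of these cell types in the Igf2 result was not tested.

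The other members did not pass the test between strains. Cdkn1c had 144, 155 and 165 count equivalents in F0 C57BL/6J and 205, 191 and 185 in F0 Cast/EiJ, without overlap, a difference of 0.32 (SE 0.11) on the log2 scale with a limma adjusted p of 0.0568. Without replicate 1 of F0 C57BL/6J or of F0 Cast/EiJ it was 0.27 or 0.28, with limma adjusted p of 0.136 and 0.14. Igf2r had 626, 746 and 712 against 754, 775 and 767, a difference of 0.14 (SE 0.08) with a limma adjusted p of 0.223. Its ranges did not overlap either. Airn had 111, 102 and 86.3 against 103, 76.5 and 59.2, and H19 had 11.2, 17.6 and 10.7 against 17.6, 8.51 and 7.01. Both overlapped, with limma adjusted p of 0.24 and 0.6.

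Corrected for transcript length, Igf2 had the highest and H19 the lowest mean level in both strains among the members with unique hits, which leaves out Phlda2. Airn was above Cdkn1c and Igf2r in F0 C57BL/6J and below them in F0 Cast/EiJ. On the length-corrected expression scale of MMSEQ, F0 C57BL/6J had 9.56 ± 0.63 (SD, n = 3) for Igf2, 5.17 ± 0.69 for Airn, 4.45 ± 0.30 for Cdkn1c, 4.14 ± 0.31 for Igf2r and 0.311 ± 0.09 for H19. Airn and Cdkn1c overlapped between libraries there, as did Cdkn1c and Igf2r. F0 Cast/EiJ had 6.12 ± 0.60 for Igf2, 5.54 ± 0.34 for Cdkn1c, 4.51 ± 0.04 for Igf2r, 3.88 ± 0.98 for Airn and 0.353 ± 0.13 for H19. In that strain Igf2 and Cdkn1c overlapped, and so did Igf2r and Airn.

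Finally, the summed output of both alleles was compared between the crosses. Of the 5 tested members 0 were called in limma or edgeR, with 2 in limma and 1 in edgeR at an unadjusted p under 0.05, where 0.0401% of 14967 genes were called in limma (6 genes, and 667 at an unadjusted p under 0.05). Igf2 had 631, 546 and 506 count equivalents per allele in F1 B6xCast and 442, 386 and 440 in F1 CastxB6, which did not overlap. The difference was -0.41 (SE 0.10) on the log2 scale, with an unadjusted p of 0.00399 and an adjusted p of 0.917 in limma. Without F1 B6xCast replicate 1 it was -0.32 (limma adjusted p 0.802). In edgeR on unique hits it was -1.11 with an adjusted p of 0.0823. H19 was 3.04 ± 0.50 and 7.84 ± 2.81 (SD, n = 3), also without overlap, a difference of 1.19 (SE 0.33) with a limma adjusted p of 0.917. Cdkn1c (-0.10), Igf2r (0.11) and Airn (-0.11) had the same adjusted p of 0.917 in limma and overlapped between crosses.

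The genes most like each member in total level, by Pearson r of log2(count equivalents + 1) over the 12 libraries, were Pmepa1 (0.911), Ppp1r12b (0.91) and E530001K10Rik (0.904) for Igf2. They were Sepsecs (0.927), Dusp8 (0.923) and Lass1 (0.908) for Cdkn1c. For Igf2r they were Rps6ka5 (0.924), Ctbp2 (0.915) and Exoc4 (0.892), and for Airn they were Ino80 (0.93), Inha (0.928) and Crlf2 (0.919). These are the top 3 of at least 11611 candidate genes each, the 12 points share strain background and cross, and no test was made on them.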

How the data were processed

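Male retinas were profiled by paired-end sequencing of polyadenylated RNA without strand information. According to the submitters' processing notes, Trim Galore 0.2.6 and Bowtie 0.12.9 were used, and the authors estimated gene and allele expression with MMSEQ against the C57BL/6J and Cast/EiJ transcriptomes (build NCBI37). The deposited unique hits are whole counts of fragments. The deposited count equivalents are a normalized signal, in which each F1 allele column is scaled to about the size of an F0 library, so F1 levels are the mean of both alleles. The deposited expression estimates and their posterior SD are on the natural log scale.

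Parental and strain effects were fitted with limma 3.58.1 in R 4.3.3 on log2(count equivalents + 1) over the 12 libraries, with F1 library as a block (consensus correlation 0.135), for autosomal genes averaging 10 or more unique hits per F1 library. F0 libraries and cross totals were compared by limma with a variance trend, for genes reaching 10 count equivalents in 3 or more of the 6 libraries. Adjusted p-values follow Benjamini and Hochberg over all genes tested, with calls under 0.05. P-values measure only the spread between pools. Alternatives used edgeR 4.0.16, DESeq2 1.42.0, TMM scaling, another pseudocount (5), other filters, weights from the posterior SD and the removal of single libraries. Two-sided exact permutation tests flipped the signs of paired differences over 6 libraries.

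Genes named by rule are the members, the measured neighbours, genes of 3 further lists with a parental call, 5 imprinted references and the 3 genes most like each member in level. Igf2as, Kcnq1, Slc22a18, Ascl2 and Ins2, which were too low for the test, were named after their values were seen. Members and lists were chosen with earlier results of these data known. On simulated data with 200 of 13414 genes changed 2-fold, limma recovered 92% of them in the parental comparison, with 33 false calls. False calls were thus a larger share of the limma calls than the limit on adjusted p allows. In the same comparison edgeR recovered 86% with 11 false calls, and DESeq2 recovered 74.5% with 4.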

Additional observations from a re-analysis of the deposited data

Results flagged for a closer look

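The maternal minus paternal difference of Igf2 was -2.83 (SE 0.21) on the log2 scale in F1 B6xCast and -0.89 (SE 0.21) in F1 CastxB6, and the difference between crosses was 1.94 (SE 0.30), with a limma adjusted p of 0.000106. The same direction of bias was seen in 6 of 6 libraries. Groups of 3 libraries are too small for an outlier test of the Igf2 share within a cross. F1 B6xCast replicate 1, which stood apart over all genes, had the lowest maternal share, 8.43%. Without that library the strain difference between alleles, which is the same contrast, was -0.77 (SE 0.12, limma adjusted p 0.000232).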

How the results depend on the processing

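The parental effects of Igf2, Cdkn1c and Igf2r kept their direction and their call under all 15 alternatives, and that of Airn under all but 1. With the log expression weighted by its posterior SD, Airn was at -4.70 with a limma adjusted p of 0.0624. The number of genes called by parental origin, 60 in limma, was 38 in DESeq2, 30 with the weighted log expression, 66 with a variance trend (chosen after seeing the data) and 56 to 74 when single libraries were left out. Without single libraries, strain calls numbered 5321 to 5902, F0 calls 3498 to 4573 and cross calls 5 to 12, the last without F1 B6xCast replicate 1. The excess over the X-linked share was 17.0 to 21.5 points for Igf2, 4.23 to 5.29 for Cdkn1c, 40.4 to 42.6 for Igf2r and -0.35 to -0.11 for Airn when single libraries were left out. For Airn it was 0.02 points without Mid1 and Nono, 0.20 against the 5 references and -0.96 with count equivalents. With 1 library left out, the exact permutation p of Igf2, Cdkn1c and Igf2r was 0.0625, the smallest that 5 libraries allow. With count equivalents the excess of Cdkn1c was 2.72 points (exact permutation p = 0.0625). The F0 difference of Igf2 was -0.70 to -0.42 without single libraries. With TMM, 36.6% of F0 calls were higher in Cast/EiJ, against 50.9% without it. Of cross calls, 0 of 6 were higher in F1 CastxB6, against 1 of 8 with TMM, 6 of 12 without F1 B6xCast replicate 1 and 5 of 9 without F1 B6xCast replicate 2. The cause of these shifts was not tested.

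Replicate numbers were not shown to pair the libraries. Deviations of same-numbered libraries correlated at 0.382, 0.0484 and 0.29 in F0 and at -0.0698, -0.0436 and 0.00321 in F1, and not every library correlated best with its own number. With a replicate block there were 52 calls by parental origin, 6247 by strain, 6376 in F0 and 4 between crosses.

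Depth limits H19 (27 allele-specific hits), Phlda2 (0) and the less expressed alleles of Airn (2) and Cdkn1c (11).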
